A study of Rattus norvegicus with 12 samples.

Results

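The miR-148 and miR-152 family of the rat comprises 3 hairpins, miR-148a, miR-148b and miR-152, each of which can give a miRNA from its 5p and its 3p arm. The 6 mature arms, rno-miR-148a-3p, rno-miR-148a-5p, rno-miR-148b-3p, rno-miR-148b-5p, rno-miR-152-3p and rno-miR-152-5p (written below without the rat prefix rno), were selected by name: 6 of the 574 miRNAs in the authors' heart table and 5 of the 367 in their exosome table were members, and miR-152-5p was a row of the heart table only. The selection was made with the authors' folds already known, so the values of M against CK below are descriptions and carry no test. Small RNA had been sequenced from 12 samples of SD rats, 6 from heart and 6 labelled serum, and the exosome table is the one left for the serum samples. Exosomes are small vesicles that cells release into body fluids. The headers name the groups M and CK in each table, without saying what either stands for. The design text describes rats whose left coronary artery was tied for 30 minutes and then reopened for a week, and no label says whether M, CK or both had this operation, nor how old the animals were, nor whether samples came from separate animals or pools. All groups share the SD strain, and no transgene or drug is named.

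A miRNA hairpin is cut into a short duplex, of which usually the arm more often loaded into an Argonaute protein accumulates while the other is degraded. The loaded arm finds mRNAs by pairing through its seed, bases 2 to 8 from the 5′ end, and lowers their stability and translation. miRNAs with the same seed can bind the same sites. The 3p arms of this family are the usual products, and their known targets in human and mouse cells include the mRNA of DNMT1, the enzyme that copies DNA methylation after replication. miR-148a is also known as an abundant liver miRNA that acts on lipid genes.

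Mature sequences were found in RefSeq (GRCr8) for 5 of the 6 members, and are shown because the shared seed, in capitals, is what makes the 3p arms a family.
miR-148a-3p: uCAGUGCAcuacagaacuuug
miR-148b-3p: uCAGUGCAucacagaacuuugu
miR-152-3p: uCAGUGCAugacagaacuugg
miR-148a-5p: aAAGUUCUgagacacucugacuc
miR-152-5p: aGGUUCUGugauacacuccgacu

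The 3p arms share the seed CAGUGCA, which pairs with UGCACUG in an mRNA, and no other of the 724 mature miRNAs in that RefSeq table has it. Positions below are counted from 1 at the 5′ end. From miR-148a-3p to miR-148b-3p the substitutions are C9U and U10C, and 19 of 21 positions are identical. From miR-148a-3p to miR-152-3p they are C9U, U10G and U20G, and from miR-148b-3p to miR-152-3p C10G and U20G. With 2 or 3 differing bases, reads of one 3p arm could be assigned to another, and no source used here says how the authors treated such reads. The 5p arms of miR-148a and miR-152 have different seeds, AAGUUCU and GGUUCUG.

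In GRCr8 the 3p arm of miR-148a lies at chr4:81664447-81664467 on the minus strand, within the span of no other gene of the RefSeq table. That of miR-148b lies at chr7:136299930-136299951 on the plus strand, inside the span of Copz1. That of miR-152 lies at chr10:82329435-82329455 on the plus strand, inside the span of Copz2. Copz1 and Copz2 are paralogs that encode zeta subunits of the COPI vesicle coat, and both are on the same strand as the hairpin they hold. The table gives no exons, so whether the hairpins are intronic was not looked up. The submitters' notes name another build, mRatBN7.2, and these positions were joined to no value. The hairpin of miR-148a, with its 2 arms in capitals, shows where the 5p and 3p reads come from.
Mir148a: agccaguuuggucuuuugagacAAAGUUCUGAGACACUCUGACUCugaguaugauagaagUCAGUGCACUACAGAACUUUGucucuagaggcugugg

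All levels are normalized reads, the authors' reads divided by a size factor per library, given as their deposited group means. Values of single libraries come from whole reads reconstructed from those means. The reconstruction assumed 3 libraries per group, and no searched mean was left without a solution. Libraries are numbered by rising depth within a group and cannot be matched to labelled samples. Estimated depth was 2252914 to 5421411 miRNA reads in heart M, 4059065 to 6609918 in heart CK, 1854878 to 1961161 in exosome M and 1695632 to 5328355 in exosome CK. Heart M library 2 stood apart from the other M libraries: 22.4% of 147 abundant miRNAs (solved reads, mean of 100 or more) differed by more than 2-fold from the geometric mean of the other M libraries, against 0.680% to 8.84% for every other heart library. In the exosome table this share was 33.8% to 36.6% for each of the 6 libraries. The cardiomyocyte miRNAs miR-1-3p, miR-133a-3p, miR-133b-3p, miR-208a-3p, miR-208b-3p and miR-499-5p were all in the heart table, with 6.56% of the M total and 7.45% of the CK total. The exosome samples had 4 of them, with 0.187% and 0.196%, and miR-208a-3p and miR-208b-3p were not rows of it.

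In heart, the arms of miR-148a and miR-152 had about 2-fold higher means in M, while miR-148b-3p had almost the same mean. The 6 log2 folds of M over CK were all above 0 with the authors' scaling, and that of miR-148b-3p turned below 0 as a share of the total. Their median was 1.04, where the median over all 574 heart miRNAs was 0.02. None of the 6 had an adjusted p below 0.05 by the authors' test (0.556 to 1), beside 4 of all 574, or 0.697%. Without adjustment 3 members had a p below 0.05 (miR-148a-3p, miR-148a-5p and miR-152-3p), beside 44 of 574, or 7.67%. Nothing is read from these counts, since the members were chosen with this contrast known. In heart tissue, more cells of a type and more of a miRNA per cell cannot be told apart.

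miR-148a-3p, the main product of its hairpin, was the most abundant member. It had a mean of 197745 normalized reads in heart M and 97883 in heart CK, a ratio of 2.02 (log2 fold 1.01). It ranked 10 by mean in M and 10 in CK and made up 4.13% and 2.30% of all miRNA reads. By mean over all heart libraries it stood between miR-21-5p, at 190017, and miR-30c-5p, at 132173. It was too abundant for its reads to be solved, so how its mean is spread over libraries is unknown.

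miR-148a-5p, the other arm of that hairpin, could be followed by library. It had 1337, 2206 and 1044 normalized reads in heart M libraries 1, 2 and 3, from 630, 2254 and 1183 reads, and 823, 761 and 544 in the CK libraries, from 784, 1052 and 844 reads. Every M library was above every CK library, and M library 2 was the highest. In the same M libraries the mesenchymal miR-214-3p had 2492, 9067 and 1425 normalized reads, highest in library 2. Another mesenchymal miRNA, miR-145-3p, had 1098, 688 and 1186, and the cardiomyocyte miR-208a-3p had 785, 194 and 948, both lowest in library 2. The part of these miRNAs in the miR-148a-5p of M library 2 was not tested. The means of miR-148a-5p were 1529 ± 605 in M and 710 ± 146 in CK (SD, n = 3 each), a log2 fold of 1.11. Without M library 2 the ratio was 1.68, against 2.16 with it.

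miR-152-3p had a mean of 22339 in heart M and 10698 in heart CK, a ratio of 2.09 (log2 fold 1.06), and its reads could not be solved. It was the 34th most abundant miRNA in M and the 43rd in CK. Its companion arm miR-152-5p was scarce, with 84.9, 221 and 83.8 normalized reads in M libraries 1, 2 and 3 and 41.0, 78.1 and 50.3 in the CK libraries. The groups did not overlap, but M libraries 1 and 3 were close to CK library 2, while M library 2 was far above the rest. Its means were 130 ± 79.0 in M and 56.5 ± 19.3 in CK (SD, n = 3 each), a ratio of 2.30 that was 1.49 without M library 2.

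miR-148b-3p, which carries the same seed, had 4335, 4393 and 4653 normalized reads in heart M libraries 1, 2 and 3 and 3970, 4382 and 4415 in the CK libraries. The groups overlapped and no library stood apart. The means were 4460 ± 169 in M and 4256 ± 248 in CK (SD, n = 3 each), a log2 fold of 0.07, which was -0.10 when each mean was taken as a share of its group's total. miR-148b-5p had 170, 201 and 179 in M and 135, 101 and 164 in CK, so that every M library was above every CK library by a narrow margin. Its means were 183 ± 15.8 and 133 ± 32.0 (SD, n = 3 each), a log2 fold of 0.46.

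Of the 4 heart members with solved reads, 3 had all M libraries above all CK libraries. Of all heart miRNAs whose reads were solved and whose mean was 10 or more, 47 of 287, or 16.4%, had the same order.

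**Figure D1:**
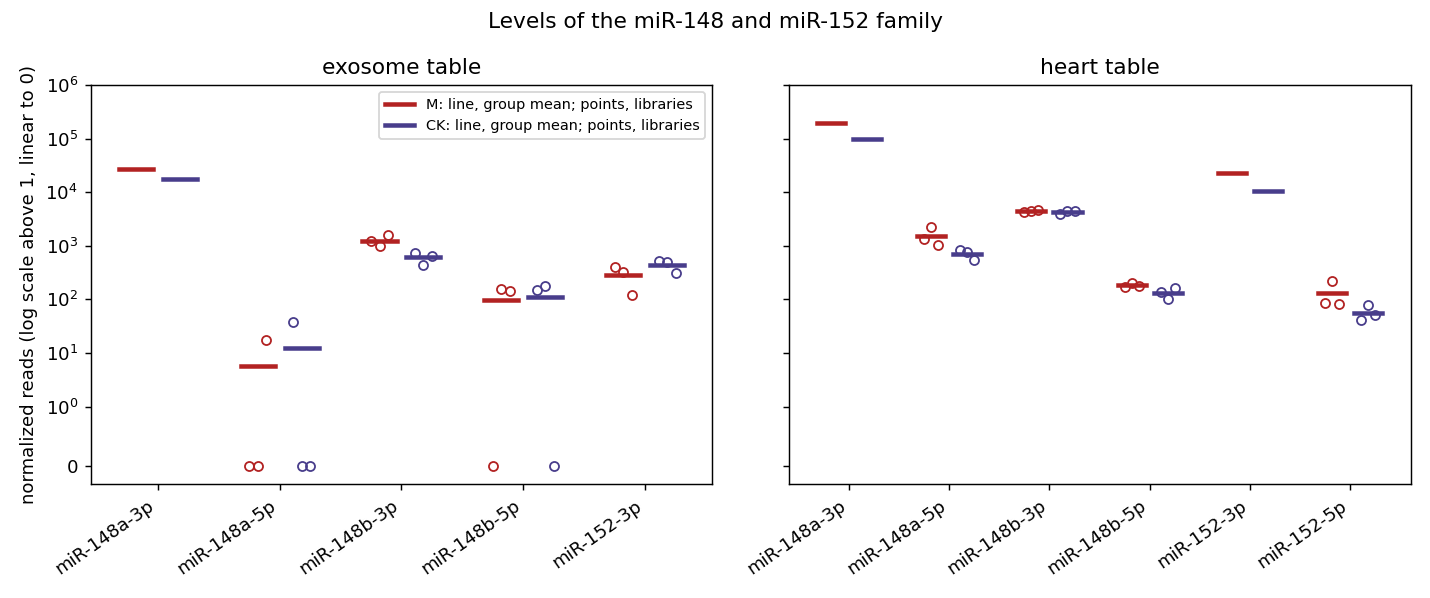
Normalized reads of each member (y, log scale above 1 and linear to 0) in the exosome and heart tables, M in red and left of CK in dark blue; lines are the authors' group means and circles the 3 libraries per group where reads could be solved. miR-148b-3p has nearly equal heart means (4460 in M, 4256 in CK), while the 2 arms of miR-148a and of miR-152 are higher in heart M, and exosome 5p arms have libraries at 0.

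Because the ratio of 2 miRNAs in 1 library does not depend on a size factor, the members were also set against miR-148b-3p within each heart library. For every 100 reads of miR-148b-3p there were 30.9, 50.2 and 22.4 reads of miR-148a-5p in M libraries 1, 2 and 3 and 20.7, 17.4 and 12.3 in the CK libraries. The ranges did not overlap, and the closest pair was M library 3 and CK library 1. With miR-148b-3p nearly level over the heart libraries, such ratios largely repeat the levels given above. How often ratios of other miRNAs separate the groups is not given here, so nothing is read from the lack of overlap. The means were 34.5 ± 14.3 in M and 16.8 ± 4.23 in CK (SD, n = 3 each). miR-152-5p had 1.96, 5.04 and 1.80 reads per 100 of miR-148b-3p in M and 1.03, 1.78 and 1.14 in CK, again without overlap, although M library 3 and CK library 2 were nearly level. Set against each other, miR-152-5p had 6.35, 10.03 and 8.03 reads per 100 reads of miR-148a-5p in M and 4.97, 10.3 and 9.24 in CK, means of 8.14 ± 1.84 and 8.16 ± 2.81 (SD, n = 3 each), and the groups overlapped. By the authors' heart means, miR-148a-3p was 44.3 times miR-148b-3p in M and 23.0 times in CK, and miR-152-3p 5.01 times in M and 2.51 times in CK.

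**Figure D2:**
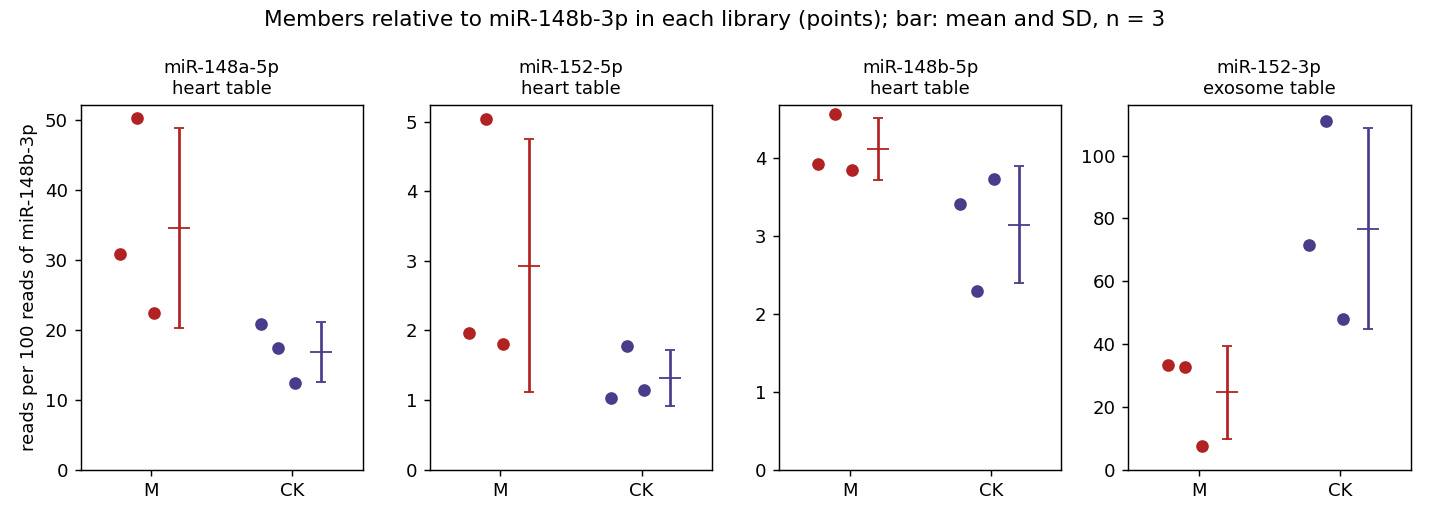
Reads of 4 members per 100 reads of miR-148b-3p in the same library (y), for heart (3 panels) and exosome (right panel); points are libraries, M left of CK, and the bar beside them is the mean and SD of 3 libraries. The heart points of miR-148a-5p lie between 22.4 and 50.2 in M and between 12.3 and 20.7 in CK, and the exosome points of miR-152-3p between 7.63 and 33.4 in M and between 47.8 and 111 in CK.

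The arm ratios in heart were close between groups for miR-148a and miR-152. The 3p arm exceeded the 5p arm 129-fold in M and 138-fold in CK for miR-148a, and 172-fold in M and 189-fold in CK for miR-152. For miR-148b, which was far less one-sided, the ratio of means was 24.3 in M and 31.9 in CK, and the libraries had 25.5, 21.9 and 26.0 in M against 29.3, 43.6 and 26.9 in CK. All M libraries had a lower 3p to 5p ratio than all CK libraries, with M library 3 and CK library 3 almost equal. The share of other hairpins with such an order is not given here.

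The shared-seed 3p arms together had 224545 normalized reads in heart M and 112836 in heart CK, a ratio of 1.99, and made up 4.69% of the M total and 2.65% of the CK total. miR-148a-3p made up 88.1% of that sum in M and 86.7% in CK. miR-152-3p followed with 9.95% in M and 9.48% in CK. miR-148b-3p was the least, with 1.99% in M and 3.77% in CK.

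Other miRNA groups also moved in the heart table, and their part in the family's values was not tested. The 6 listed miRNAs of smooth muscle and other mesenchymal cells (both arms of miR-145 and of miR-199a, miR-143-3p and miR-214-3p) summed to 713669 in M and 551708 in CK, with 4 of 6 higher in M and most of each sum from miR-143-3p (630699 in M and 488987 in CK). Among the list's other members, miR-199a-5p had 5.30 times, miR-214-3p 3.79 times and miR-199a-3p 2.51 times the CK mean in M. With all libraries kept, these were beyond the ratios of miR-148a and miR-152, while the arms of miR-145 had 0.667 and 0.820 times. The heart M reads of miR-199a-5p and miR-199a-3p were not solved, so their ratios without M library 2 are unknown. miR-214-3p had 2492, 9067 and 1425 in M libraries 1, 2 and 3 and 1068, 1559 and 796 in the CK libraries, with M library 2 far above the rest. miR-145-3p instead had 1098, 688 and 1186 in M and 1299, 902 and 1420 in CK, with library 2 the lowest of each group. The 4 red cell miRNAs, led by miR-486, summed to 40158 in M and 83748 in CK, with 2 of 4 higher in M. The 3 liver miRNAs miR-122-5p, miR-192-5p and miR-194-5p summed to 1788 in M and 1410 in CK, with 2 of 3 higher in M. Among them miR-122-5p, the most liver-specific, had 197, 16.6 and 85.6 in M libraries 1, 2 and 3 and 19.95, 10.1 and 20.6 in the CK libraries, a ratio of means of 5.91, with M library 2 within the CK range. The 4 leukocyte miRNAs summed to 6978 in M and 11220 in CK. Most of each sum was miR-150-5p, at 0.526 times its CK mean in M, while miR-223-3p and the arms of miR-142 had 1.74 to 1.89 times. The 2 arms of endothelial miR-126a summed to 382054 in M and 312028 in CK, with 1 of 2 higher. The cardiomyocyte list summed to 313934 in M and 317692 in CK, most of it miR-1-3p (251909 in M and 205731 in CK), the single member higher in M. The other 5 had lower means in M, with 0.510 times the CK mean for miR-133a-3p, 0.534 for miR-133b-3p and 0.525 for miR-208a-3p, and the list's median log2 fold was -0.67. miR-133b-3p had 1093, 441 and 1393 in M libraries 1, 2 and 3 and 1909, 1619 and 1956 in the CK libraries, with M library 2 the lowest. In the authors' deposited table none of these lists' heart members passed at an adjusted p below 0.05, and none was at 0 in either group. miR-210-3p, a hypoxia-induced miRNA, had 836 in M and 888 in CK.

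In the exosome table the members did not share a direction. 2 of 5 had a higher mean in M and 3 a lower one. The median log2 fold of -0.13, where all 367 miRNAs had -0.35, is that of miR-148b-5p, which turned its sign in 3 of 6 cases when a library was left out (-0.72 to 0.45). Another of the 3, miR-148a-5p, had reads in only 1 library per group, 14 in M and 29 in CK. None had an adjusted p below 0.05 by the authors' test (0.469 to 1), beside 14 of 367, or 3.81%. None had an unadjusted p below 0.05 either, beside 51 of 367, or 13.9%.

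miR-148a-3p was again the most abundant member, with a mean of 27166 in exosome M and 17753 in exosome CK, a ratio of 1.53 (log2 fold 0.61). It ranked 21 in M and 29 in CK and made up 1.12% and 0.801% of the total, and its reads could not be solved. Its neighbours by overall mean were miR-320-3p, at 22467, and miR-10a-5p, at 18214, against its own 22460.

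miR-148b-3p had 1209, 975 and 1566 normalized reads in exosome M libraries 1, 2 and 3, from 928, 788 and 1271 reads, and 735, 446 and 653 in the CK libraries, from 563, 596 and 1570 reads. Every M library was above every CK library. The means were 1250 ± 298 in M and 611 ± 149 in CK (SD, n = 3 each), a ratio of 2.05 that was 1.79 to 2.28 when each library was left out. Of the 4 solved exosome members 1, miR-148b-3p, had this order, beside 16 of 256 exosome miRNAs solved at a mean of 10 or more, or 6.25%.

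miR-152-3p had 404, 319 and 120 in exosome M libraries 1, 2 and 3 and 525, 495 and 312 in the CK libraries. The groups overlapped, with M libraries 1 and 2 above CK library 3 and M library 3 the lowest of all. The means were 281 ± 146 in M and 444 ± 115 in CK (SD, n = 3 each), a ratio of 0.632, and 0.814 without M library 3. Per 100 reads of miR-148b-3p in the same library there were 33.4, 32.7 and 7.63 reads of miR-152-3p in M and 71.4, 111 and 47.8 in CK. Here the groups did not overlap, and the means were 24.6 ± 14.7 in M and 76.8 ± 32.0 in CK (SD, n = 3 each). The denominator miR-148b-3p was itself higher in every M library than in every CK library, as given above. How often ratios of other miRNAs have such an order is not given here. In heart, by contrast, the authors' means of miR-152-3p over miR-148b-3p were higher in M (5.01) than in CK (2.51). Whether the heart and exosome differences in this ratio differ from each other was not tested, because the heart reads of miR-152-3p were not solved.

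The 5p arms were found in the exosome samples only in some libraries. miR-148b-5p had 0, 126 and 115 reads in M libraries 1, 2 and 3 and 116, 234 and 0 in the CK libraries. CK library 3 was the deepest exosome library, with 1570 reads of the 3p arm of the same hairpin. A count of 0 allows up to 3 reads, or 1.25 normalized reads in CK library 3 and 3.91 in M library 1, and these limits cover counting error only. The ratio of 3p to 5p reads was thus at least 309 in M library 1, 6.25 and 11.1 in M libraries 2 and 3, 4.85 and 2.55 in CK libraries 1 and 2, and at least 523 in CK library 3. In heart the same ratio stayed between 21.9 and 43.6 in the 6 libraries. The exosome means of miR-148b-5p were 99.2 ± 86.2 in M and 109 ± 95.0 in CK (SD, n = 3 each), and the ratio of 0.911 became 1.37 without M library 1 and 0.608 without CK library 3. miR-148a-5p had 14 reads in M library 3, 29 reads in CK library 1 and 0 in the other 4 exosome libraries, while its 3p arm had means of 27166 in M and 17753 in CK.

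Libraries at 0 were frequent among exosome miRNAs of such levels. Of 79 solved exosome miRNAs with a mean of 50 to 200, 57, or 72.2%, were at 0 in at least 1 library and 24 in at least 2, where 0 of 62 heart miRNAs of the same levels were at 0 in any. Of 60 with a mean of 5 to 20, 55 were at 0 in at least 4 of the 6 exosome libraries, against 0 of 94 in heart.

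Summed over the 3p arms, the family had 28697 normalized reads in exosome M and 18809 in exosome CK, a ratio of 1.53, or 1.19% and 0.849% of the total. miR-148a-3p made up 94.7% of the sum in M and 94.4% in CK. miR-148b-3p made up 4.36% in M and 3.25% in CK, and miR-152-3p 0.979% in M and 2.36% in CK. In the exosome table miR-148b-3p thus stood above miR-152-3p, and in heart below it, in each group.

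**Figure D3:**
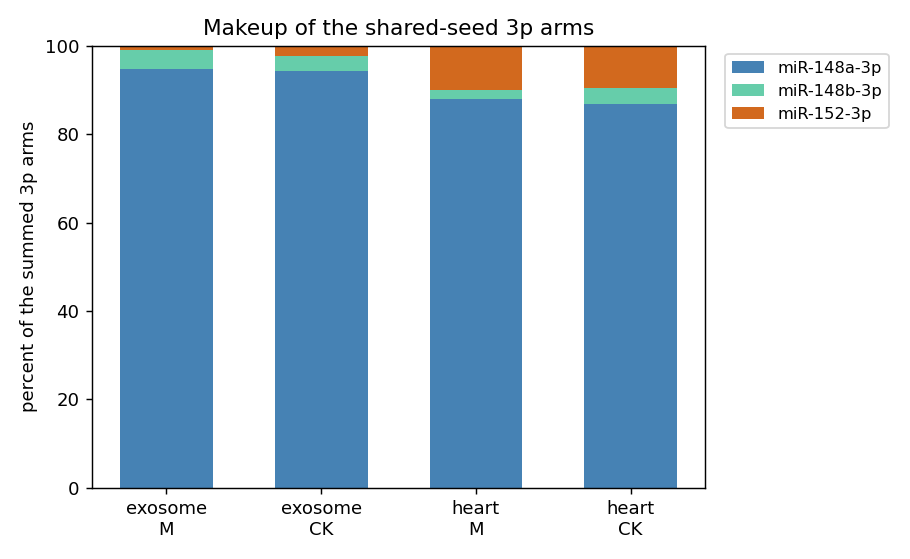
Percent of the summed 3p arms (y, stacked to 100) made up by miR-148a-3p, miR-148b-3p and miR-152-3p in each group, from the authors' group means. miR-148a-3p makes up 86.7% to 94.7% in every group, and miR-152-3p 9.95% and 9.48% in heart M and CK but 0.979% and 2.36% in exosome M and CK.

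Taken as shares of all miRNA reads, the members differed in how the exosome table compared with heart, and these levels come from tables normalized separately. miR-148a-3p had an exosome share of 0.272 times its heart share in M and 0.349 times in CK. miR-148b-3p had 0.555 times in M and 0.276 times in CK. miR-152-3p had 0.0249 times its heart share in M and 0.0799 times in CK, and miR-148a-5p, on reads in 1 exosome library per group, 0.00744 times in M and 0.0342 times in CK, the lowest of the members. miR-148b-5p was the exception, with 1.07 times in M and 1.57 times in CK, on the patchy reads given above.

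Marker lists in the exosome table showed these values beside the family, and their part in it was not tested. The 6 mesenchymal miRNAs summed to 65242 in M and 135670 in CK, all 6 lower in M. Of these, miR-143-3p and miR-199a-3p had an adjusted p below 0.05 by the authors' test, and none was at 0. The 3 liver miRNAs summed to 17967 in M and 32337 in CK, most of it miR-122-5p (16967.5 in M and 30259.5 in CK). Of the 3, miR-194-5p had the higher mean in M, at 134 against 109, but its groups overlapped. It had 30.0, 136 and 235 in M libraries 1, 2 and 3 and 242, 57.6 and 28.3 in the CK libraries. The 4 red cell miRNAs summed to 298849 in M and 266868 in CK, with 3 of 4 higher in M and most from miR-486 (287407 and 257951). The 4 leukocyte miRNAs summed to 65102 and 64143, but did not move together. Of these, miR-150-5p had 0.575 times its CK mean in M, while miR-223-3p and the arms of miR-142 had 1.23 to 2.03 times. The 2.03 is that of miR-142-3p, whose groups overlapped. It had 291, 79.2 and 266 in M libraries 1, 2 and 3 and 116, 197 and 0 in the CK libraries. The 2 endothelial ones summed to 2792 and 2847, with 1 of 2 higher in M. The 4 cardiomyocyte miRNAs present summed to 4510 and 4331, with 3 of 4 higher in M and most from miR-1-3p (4091 and 3832). Nothing is read from that count. miR-133b-3p had 1 read in 1 library of each group. miR-1-3p had 1523, 8402 and 2349 in M libraries 1, 2 and 3 and 3996, 3690 and 3811 in the CK libraries. miR-499-5p had 237, 73.0 and 0 in M and 47.0, 83.8 and 72.7 in CK. miR-210-3p had 66.3 and 54.0.

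The miR-29 family, whose known targets include the de novo DNA methyltransferases Dnmt3a and Dnmt3b, was the list set beside this family as other miRNAs of that pathway. All 3 of its listed 3p arms were lower in M in each table, none with an adjusted p below 0.05 by the authors' test. In heart their log2 folds in the authors' deposited table were -0.41 for miR-29a-3p, -0.92 for miR-29b-3p and -0.21 for miR-29c-3p, with a median of -0.41 where all heart miRNAs had 0.02. In the exosome table they were -0.17, -1.63 and -0.72, with a median of -0.72 where all had -0.35.

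**Figure D4:**
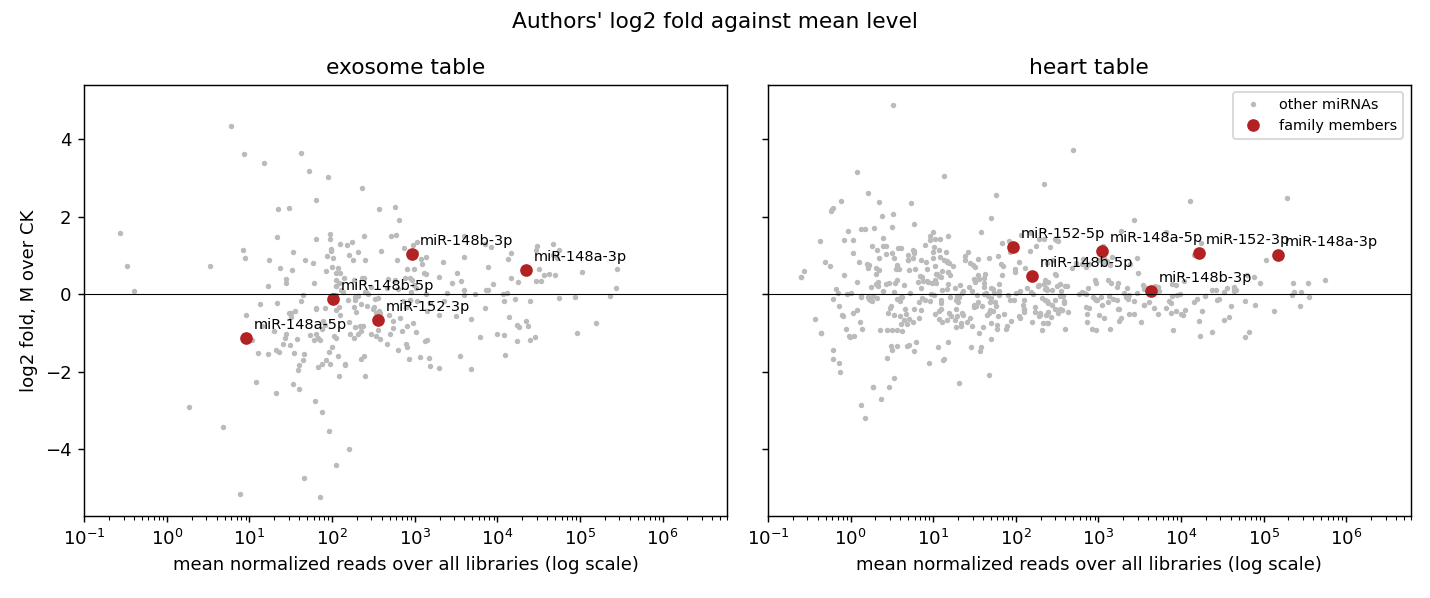
Authors' log2 fold of M over CK (y) against the mean over all libraries (x, log scale) for every miRNA with reads in both groups (grey) and the family members (red); 80 exosome and 64 heart miRNAs at 0 in 1 group are not drawn. In heart 4 members lie between 1.01 and 1.20 and the arms of miR-148b at 0.07 and 0.46, while exosome members lie between -1.13 and 1.03.

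The miRNAs with the most similar pattern were found by Euclidean distance, in log2 units, over the 4 group means taken as shares of their totals and centred, among 236 miRNAs with a mean of at least 10 in all 4 groups. For miR-148a-3p they were miR-132-5p (distance 0.31), miR-224-5p (0.71) and miR-7a-5p (0.75), and miR-148b-3p lay at 0.81. miR-132-5p had 138 in heart M and 78.3 in heart CK, and 18.1 in exosome M and 15.5 in exosome CK. Each of its exosome means rests on 1 library, with 0, 0 and 44 reads in M libraries 1, 2 and 3 and 0, 0 and 112 in the CK libraries. For miR-148b-3p they were let-7e-5p (0.25), miR-103-3p (0.29) and miR-28-3p (0.44). For miR-152-3p the nearest were farther away, miR-195-3p (0.84), miR-1-3p (0.86) and miR-23b-3p (1.03), and miR-148a-3p lay at 2.93 and miR-148b-3p at 3.43. Exosome miR-195-3p likewise had 0, 27 and 0 reads in M and 14, 0 and 176 in CK. For miR-148b-5p they were miR-24-2-5p (0.24), miR-27a-3p (0.38) and miR-542-3p (0.41). These distances rest on the patchy exosome reads of miR-148b-5p given above. Exosome miR-542-3p had 0, 203 and 1065 reads in CK libraries 1, 2 and 3. The distance spans both tables, so a near miRNA can differ in its ratio of M to CK. In the exosome table miR-224-5p had a ratio of 0.795 and miR-7a-5p 2.26, where miR-148a-3p had 1.53. miR-1-3p had 1.07 in the exosome table and 1.22 in heart, where miR-152-3p had 0.632 and 2.09.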

How the data were processed

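The authors deposited a heart and an exosome table of M against CK. The tools named in the submitters' processing notes are Bowtie2 2.2.6 and DESeq 1.30.0, with the build mRatBN7.2 and no roles, and the labels' protocols name Trizol and the NEBNext small RNA kit. Per the file headers, rows hold deposited mean normalized counts (a signal, reads over size factors), the fold as a ratio of the M to the CK mean, its log2, and a p-value with its adjusted p-value. No source used here describes trimming, miRNA annotation, multi-mapping reads or filters. The deposited p-values set the difference of group means only against the spread between samples, which may be technical.

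Each deposited mean, printed to 15 digits, is a sum of whole reads times 3 steps, one per library. Steps were read from the smallest means and refined by least squares, and reads were searched (numba 0.67.0, mpmath 1.4.1) where at most 0.01 false solutions were expected. All searched means had exactly 1 solution, 85.8% to 91.1% of rows per group, and those above 4137 to 8124 were not searched. On simulated means (those below 3 kept their real reads), 266 and 292 exosome values (M, CK) and 482 and 487 heart values were solved correctly and 0 wrongly. Median-of-ratios size factors differed from the steps by at most 4.15%. Totals of the means were 0.17 (heart) and 0.13 (exosome) higher in M on the log2 scale. No count model was fitted, because the members were chosen with this contrast known. Members, lists and the rule for naming (all members, their 3 nearest miRNAs by pattern, rank neighbours, seed sharers and the miR-29 list) were chosen with earlier results of these data known.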

Additional observations from a re-analysis of the deposited data

How the results depend on the processing

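No paired analysis was possible because the columns carry no replicate numbers and libraries cannot be matched to labelled samples. As shares of the group totals, log2 folds of M over CK were 0.49 for miR-148a-3p and 0.48 for the summed 3p arms in the exosome table, and 0.85 for miR-148a-3p, 0.90 for miR-152-3p, 0.83 for the summed 3p arms and -0.10 for miR-148b-3p in heart, the last of opposite sign. With a pseudocount of 1, log2 ratios of 3p to 5p were 11.97 and 10.35 for miR-148a in exosome M and CK, and 7.41 and 7.54 for miR-152 in heart M and CK. Size factors recomputed by the median of ratios, added after seeing the data, moved none of 8 solved folds by more than the SD between libraries. Leaving out each library gave heart log2 folds of 0.75 to 1.32 for miR-148a-5p, 0.58 to 1.51 for miR-152-5p, 0.29 to 0.63 for miR-148b-5p and 0.02 to 0.09 for miR-148b-3p, and exosome log2 folds of 0.84 to 1.19 for miR-148b-3p, -1.02 to -0.30 for miR-152-3p, -1.72 to -0.55 for miR-148a-5p and -0.72 to 0.45 for miR-148b-5p, which turned its sign in 3 of 6. Without M library 3 or CK library 1, exosome miR-148a-5p is at 0 in a group and gave no value. The log2 3p to 5p ratio of miR-148b was 3.09 to 4.29 in exosome M, 1.85 to 3.20 in exosome CK, 4.56 to 4.69 in heart M and 4.81 to 5.15 in heart CK. Within-library log2 ratios to miR-148b-3p, M over CK, also added later, were 0.66 to 1.27 for miR-148a-5p, 0.51 to 1.43 for miR-152-5p and 0.20 to 0.53 for miR-148b-5p in heart, and -1.93 to -1.21 for miR-152-3p in the exosome table. miR-148a-3p and the sums could not be recomputed without a library. At an adjusted p below 0.1 the exosome table held 22 miRNAs against 14. With a mean of at least 100, 2 of the 3 nearest miRNAs were kept for miR-148a-3p and 2 for miR-152-3p. miR-148b-5p, with 99.2 in exosome M, was below that mean, so its nearest miRNAs were not rechecked. The causes were not tested.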
